A study of Mus musculus with 16 samples.

Results

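Basophils of lineage-negative mouse bone marrow were taken from single-cell counts of unique molecular identifiers (UMIs, each marking 1 captured RNA molecule). Of 94917 cells kept (750 genes or more, mitochondrial UMIs up to 10%), 7465 (7.86%) were chosen by their own measured levels. A cell had to hold at least 10 UMIs of Mcpt8 and Prss34 together, at least 1 UMI of Fcer1a, Ms4a2 or Cd200r3, and no UMI of Epx. The levels of those 6 genes are given as a description and were not tested. Of 7709 cells that reached 10 UMIs of Mcpt8 and Prss34, 151 held none of the 3 surface genes and 93 held Epx, and these were left out.

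Basophils are short-lived granulocytes that arise in the bone marrow from progenitors close to those of mast cells and eosinophils, driven by interleukin 3 and thymic stromal lymphopoietin. They carry the high-affinity receptor for immunoglobulin E (IgE), and when it is cross-linked they release histamine, proteases and lipid mediators and make cytokines such as IL4. They also respond to cytokines of the IL1 family, IL33 and IL18 in particular, through receptors that signal by way of MyD88 to NF-kB.

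The study compared Tet2fl/fl mice without Cre (WT) with Tet2-KO mice, in which Vav-Cre removes Tet2 in all hematopoietic cells, all on C57BL/6 and labelled as 6 to 12 weeks old. Mice of each genotype were injected intraperitoneally each day for 5 weeks with 500 ng of IL1β or with vehicle, which gives 4 groups of 4 mice. Each of the 8 libraries pooled 2 mice of 1 group that carried different hashtag antibodies, so each library held 1 group only. WT mice carried no Cre, so the effects of Vav-Cre and of Tet2 loss cannot be told apart. Lineage depletion removes most mature blood cells, and the share of mature basophils it removed is not given in the sources used here.

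After the filters a library held 8569 to 14573 cells with a median of 4436 to 7363 UMIs per cell. Basophils held fewer, a median of 2974 UMIs and 1417 genes against 6212 UMIs and 2217 genes in the other cells. Between libraries 1061 of 93850 distinct barcodes recurred, and 173 basophils had such a barcode. Cells outside the gate held a mean of 0.203 to 0.375 UMIs of Mcpt8 and Prss34 in the vehicle libraries and 0.565 to 1.05 in the IL1β libraries, and the part of free RNA in that difference was not tested. The median mitochondrial share of basophils was 2.70 to 3.53% in vehicle mice and 3.51 to 4.31% in IL1β mice.

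Hashtags assigned 4975 of the 7465 basophils to 1 mouse, 31 to 701 per mouse. A further 558 (7.47%) carried both hashtags, against 3.86% of other cells, and 1932 (25.9%) had no call. The split of a pool into its 2 mice depended on the calling rule in some libraries. In the 4 libraries of mice 3 and 4, every basophil that was assigned both by the clustering rule used here and by a simple 3-fold ratio rule went to the same mouse. In the libraries of mice 1 and 2 the ratio rule left most assigned cells without a call, and of the basophils that both rules assigned, 46.3% went to the same mouse in KO vehicle, 70.7% in KO IL1β, 86.4% in WT vehicle and 100% in WT IL1β. Mice 1 and 2 of KO vehicle, KO IL1β and WT vehicle are therefore not surely separated, although each enters the tests per mouse as a replicate. By the rule used here KO vehicle mouse 1 had 4214 cells and mouse 2 had 1259, and by the ratio rule 62 and 7506. The shares, the counts of called genes and several leading genes are also given per library, which needs no hashtag. Of 128 calls of named genes, 97 were lost with libraries as replicates and 86 under the ratio rule, while none of these 128 changed direction. Under 100 basophils came from KO IL1β mouse 1 (43), KO vehicle mouse 2 (41) and WT vehicle mouse 2 (31).

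The gate lay in a sparse range of the 2 proteases. Basophils held a median of 111 UMIs of Mcpt8 and Prss34 (5th to 95th percentile 18 to 284), while the median of all other cells was 0. Just inside the limit 157 members held 10 to 12 UMIs, and just outside 175 cells that met the other conditions held 7 to 9. All 3 surface genes were detected in 4794 basophils (64.2%).

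Levels below are CPM, the UMIs of a gene per 1000000 UMIs of the same class of cells, averaged over the 16 mice. Prss34, mast cell protease 11, averaged 16982 CPM in basophils and 31.2 in all other cells, and Mcpt8, mast cell protease 8, averaged 12179 against 48.3. Fcer1a, the IgE-binding chain of the receptor, stood at 1162 against 7.05, its beta chain Ms4a2 at 834 against 14.1 and the activating receptor Cd200r3 at 397 against 3.06. These 5 follow from the rule.

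Among genes the rule did not use, Cpa3, a granule carboxypeptidase shared with mast cells, averaged 2671 against 45.1 CPM. Among enzymes, the leukotriene-forming lipoxygenase Alox5 was at 262 against 7.29, Alox15 at 73.8 against 0.553 and Cyp11a1, which starts steroid synthesis, at 223 against 2.90. Secreted factors among the leading genes were the chemokine Ccl3 (519 against 25.8), the growth factors Csf1 (141 against 3.77) and Fgf3 (62.9 against 2.27), and Il6 (84.9 against 1.23). The remaining leading genes were the adhesion molecule Cdh1 (164 against 1.93), the receptors Ccr1 (175 against 7.42), Lag3 (55.6 against 2.47) and Gpr34 (53.6 against 0.520), the muscle LIM protein Csrp3 (298 against 10.9), Rnase12 (127 against 2.44) and Rom1 (64.2 against 3.12). These are the 20 genes of highest ratio among those at 50 CPM or more in basophils. A gate on basophil genes raises genes expressed with them, so the ratios carry no test.

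**Figure D1:**
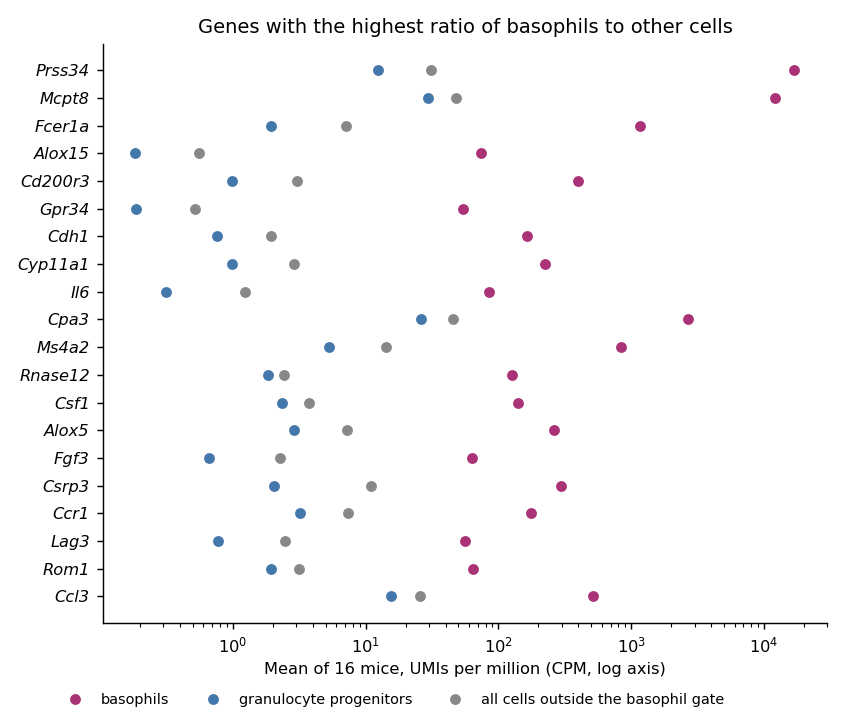
Mean level over 16 mice, in CPM on a log axis, of the 20 genes with the highest ratio of basophils to other cells, shown for basophils, granulocyte progenitors and all cells outside the gate. Prss34 (16982 CPM) and Mcpt8 (12179 CPM) lead, and Ccl3 has the lowest ratio of the 20 (20.2).

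The label was checked against the markers of related cells. Mast cell markers other than Cpa3 and Kit were at or near 0: Tpsab1, Mcpt1 and Mrgprb2 were at 0 in every mouse, Cma1 averaged 0.261 CPM, Mcpt2 0.0834, Mcpt4 0.0769 and Tpsb2 0.0200. Kit, the stem cell factor receptor that mast cells keep, averaged 46.1 against 101 CPM. Of the eosinophil genes Prg2 averaged 42.6 against 137 and Il5ra 0.616 against 0.957. The gated cells thus carried the basophil genes without the chymases and tryptases of mast cells. The summed level of 11 neutrophil lineage markers had group medians of 7600.4 to 13272 CPM in basophils. They were 19540 to 30814 in other cells and 27357 to 32507 in granulocyte progenitors. Elane, neutrophil elastase, was at 791 CPM in basophils and 6207 in granulocyte progenitors, whose gate used it, and Mpo, myeloperoxidase, at 2376 and 6871. Not every member was lower than in the progenitors: Lcn2 was at 160 CPM in basophils and 108 in granulocyte progenitors.

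The promoters of 6 of these genes are shown because 5 of them are the genes that define the gate and the other, Cpa3, is a granule gene of the lineage that the rule did not use, and because Gata2, a zinc finger factor that basophils need to develop, was at 931 CPM in basophils, 57.1 in other cells and 14.3 in granulocyte progenitors. Each is the 250 bases before the gene's start on the gene's own strand, from RefSeq on GRCm38.p6. Capitals mark AGATAA or TGATAA, or their reverse complements TTATCT and TTATCA, common forms of the letters that GATA factors recognise.
Mcpt8 (chr14:56085198-56085447, minus strand): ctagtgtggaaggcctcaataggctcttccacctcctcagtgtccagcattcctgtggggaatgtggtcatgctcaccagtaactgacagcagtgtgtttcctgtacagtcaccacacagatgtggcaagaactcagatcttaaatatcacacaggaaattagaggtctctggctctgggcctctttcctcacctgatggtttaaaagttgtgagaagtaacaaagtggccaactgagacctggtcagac
Prss34 (chr17:25298144-25298393, plus strand): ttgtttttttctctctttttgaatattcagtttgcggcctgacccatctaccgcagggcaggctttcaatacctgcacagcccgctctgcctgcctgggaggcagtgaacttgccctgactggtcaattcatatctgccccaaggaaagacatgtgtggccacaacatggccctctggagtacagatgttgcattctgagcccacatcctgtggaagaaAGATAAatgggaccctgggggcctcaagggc
Fcer1a (chr1:173227230-173227479, minus strand): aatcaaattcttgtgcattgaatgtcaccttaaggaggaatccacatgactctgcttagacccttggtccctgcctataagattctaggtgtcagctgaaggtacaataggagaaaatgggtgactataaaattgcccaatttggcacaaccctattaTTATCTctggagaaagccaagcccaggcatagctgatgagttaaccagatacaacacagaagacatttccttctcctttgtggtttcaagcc
Ms4a2 (chr19:11623720-11623969, minus strand): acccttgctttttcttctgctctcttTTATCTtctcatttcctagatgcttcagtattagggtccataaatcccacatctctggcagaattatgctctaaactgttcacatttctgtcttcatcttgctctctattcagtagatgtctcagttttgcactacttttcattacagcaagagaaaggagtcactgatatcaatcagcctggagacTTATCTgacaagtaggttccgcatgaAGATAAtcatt
Cd200r3 (chr16:44943428-44943677, plus strand): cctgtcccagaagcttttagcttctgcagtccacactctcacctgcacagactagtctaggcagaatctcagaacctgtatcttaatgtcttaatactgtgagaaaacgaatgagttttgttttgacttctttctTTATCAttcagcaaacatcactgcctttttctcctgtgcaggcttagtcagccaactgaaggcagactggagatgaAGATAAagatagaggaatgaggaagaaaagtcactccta
Cpa3 (chr3:20242182-20242431, minus strand): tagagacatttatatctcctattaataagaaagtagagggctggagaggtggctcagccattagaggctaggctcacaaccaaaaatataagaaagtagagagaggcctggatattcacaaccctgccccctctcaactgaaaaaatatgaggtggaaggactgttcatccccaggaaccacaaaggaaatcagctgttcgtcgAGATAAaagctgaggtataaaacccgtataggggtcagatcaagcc

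Ms4a2 held 3 matches, Cd200r3 2, and Fcer1a, Prss34 and Cpa3 1 each, while these letters were not found in the Mcpt8 window. Of the 20 leading genes 16 had a window in the RefSeq table, 5 of them genes of the rule. Of the other 11, 3 (27.3%) held a match, and of 27025 genes searched the same way on both strands 18.8% did. A match is a description of the letters and says nothing of binding.

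Other regulators of the lineage were also high. Lmo4, a LIM-only cofactor, averaged 800.4 against 147 CPM, the core binding factor Runx1 508 against 136, Ets1 363 against 19.8, Ikzf2 273 against 52.9 and Cebpa, which takes part in granulocyte and basophil fate, 249.8 against 50.5. Gfi1, a repressor at work in neutrophil progenitors, was lower in basophils than in other cells at 17.3 against 40.7. Receptors for the factors that drive basophils were expressed: Csf2rb, the beta chain shared by the receptors for IL3 and GM-CSF, at 237 against 39.5, its IL3-specific relative Csf2rb2 at 40.2 against 3.70, Il3ra at 126 against 28.9 and Crlf2, which binds thymic stromal lymphopoietin, at 104 against 36.8.

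Of the IL1 family receptors, those for IL18 and IL33 were present and the receptor for IL1 itself was scarce. Il18rap, the accessory chain for IL18, averaged 166 against 14.0 CPM, Il18r1 51.4 against 4.25 and Il1rl1, the IL33 receptor ST2, 96.5 against 18.3. Il1r1, the signalling receptor for IL1β, averaged 1.59 against 3.47 and did not pass the filter on low counts. Il1rap, the chain that the IL1 and IL33 receptors share, averaged 19.4 against 9.81.

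Of the mediators, Hdc, which makes histamine, averaged 377 against 55.4 CPM, and Slc18a2, which loads it into vesicles, 173 against 21.7. Il4 averaged 28.2 against 1.15, Osm 86.2 against 11.8, Hgf 163 against 8.88 and Il13 0.889 against 0.00860. Depth differed between classes, so shares of cells with a UMI were taken after thinning each cell to 1500 UMIs, which left out 266 shallower basophils. Il6 was then seen in 14.4% of 4709 basophils and 0.0547% of 18289 granulocyte progenitors, Il4 in 5.54% and 0.0492%, Il1rl1 in 17.8% and 0.388%, and Hdc in 46.6% and 12.6%. In 164 cells of a T cell gate, a lineage in which some cells can express Il4 and Il1rl1, the shares were 0.610% for Il6 and Il4 and 1.83% for Il1rl1 and Hdc. All 4 genes were seen in a higher share of basophils than of either other gate, and the T cell gate is no clean measure of free RNA for Il4 and Il1rl1. Without thinning, the shares of basophils were 26.4% for Il6, 11.9% for Il4, 36.4% for Il1rl1 and 73.4% for Hdc.

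Genes of the cell cycle were expressed in basophils. The summed level of 24 genes of G2 and mitosis had group medians of 6845 to 8307 CPM in basophils and 5880.4 to 6680.2 in other cells, and that of 24 S phase genes 3080.2 to 3519 against 3241 to 3518. Mki67, a protein of cycling cells, averaged 551 CPM in basophils, 419.8 in other cells and 299 in granulocyte progenitors. Its share after thinning was 43.3% in basophils, 29.6% in granulocyte progenitors and 23.2% in the T cell gate, and 63.2%, 69.4% and 35.4% without thinning, so no order is read from the shares.

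IL1β went with a larger share of basophils in both genotypes. Over whole libraries basophils made up 4.82% (4.38 to 5.29) and 5.71% (5.29 to 6.15) of cells in WT vehicle, and 10.2% (9.71 to 10.7) and 11.7% (11.1 to 12.2) in WT IL1β. In KO they made up 3.48% (3.15 to 3.83) and 4.66% (4.32 to 5.01) with vehicle, and 8.70% (8.13 to 9.31) and 12.6% (12.0 to 13.2) with IL1β. The brackets are exact binomial 95% intervals and cover counting error only. Both IL1β libraries lay above both vehicle libraries in each genotype, and a permutation of 2 libraries against 2 cannot reach 0.05.

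Per mouse, the share in WT was 5.75, 4.44, 5.36 and 8.25% with vehicle and 10.4, 11.2, 12.7 and 12.2% with IL1β, with no overlap. The means were 5.95% ± 1.63 (SD, n = 4) and 11.6% ± 1.03, a 1.96-fold difference (exact permutation test, two-sided, p = 0.0286, the smallest that 4 against 4 can give, and 0.114 after adjustment over 4 comparisons). In KO the shares were 4.22, 3.26, 4.47 and 6.80% with vehicle and 3.02, 10.9, 16.1 and 9.17% with IL1β. The means of 4.69% ± 1.5 and 9.79% ± 5.40 differed 2.09-fold (exact permutation p = 0.143, adjusted 0.286).

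KO IL1β mouse 1 had the lowest share of all 16 mice, and its cells are among those whose assignment changed with the hashtag rule. Its basophils held a median of 6676 UMIs, against 3307.5 to 3722 in the other KO IL1β mice. The part of depth in its share was not tested. Of its 1426 cells 56.9% were granulocyte progenitors, against 26.1 to 42.5% in the other KO IL1β mice. Without it the log2 ratio in KO was 1.36 in place of 1.06 (exact permutation p = 0.0286, adjusted 0.0571). The ratio rule left WT vehicle mouse 1 with 7 basophils, KO vehicle mouse 1 with 3 and KO IL1β mouse 2 with 14. Under that rule the WT difference was 1.47-fold (exact permutation p = 0.143) and that in KO 1.86-fold (exact permutation p = 0.114). A difference between KO and WT was not detected with vehicle (0.788-fold, exact permutation p = 0.314) or with IL1β (0.841-fold, exact permutation p = 0.6), and neither was a difference between genotypes in the effect of IL1β. As a difference of mean log2 shares the KO effect minus the WT effect was -0.12 (exact permutation within treatments, p = 0.885), while by mean shares the fold in KO was the higher, so its sign depends on the averaging. These are shares of captured lineage-negative cells, and the number of basophils per mouse was not measured.

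**Figure D2:**
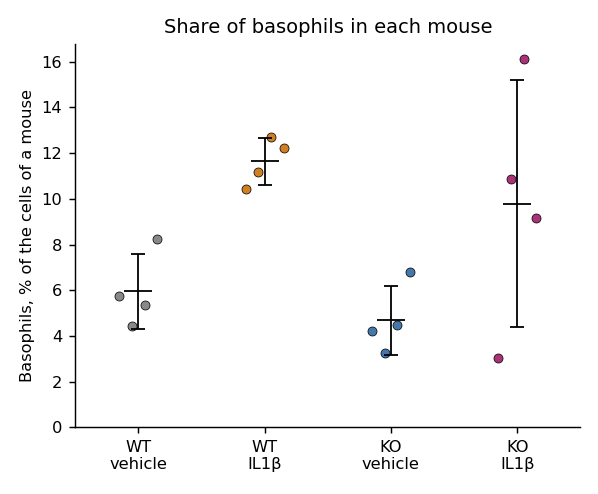
Share of basophils among the cells assigned to each mouse, in percent, as points, with mean and SD as bars, for 4 mice in each of 4 groups. The WT IL1β mice (10.4 to 12.7%) lie above all WT vehicle mice (4.44 to 8.25%), and 3 of the 4 KO IL1β mice lie above all KO vehicle mice.

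Tet2 was at 66.7, 61.0, 63.8 and 74.4 CPM in the basophils of WT vehicle mice and 88.6, 78.4, 85.2 and 55.8 with IL1β. In KO it was at 92.6, 102, 59.5 and 59.8 with vehicle and 113, 111, 94.7 and 92.6 with IL1β. The assay reads the 3′ end of transcripts, outside the deleted part, so these levels do not check the deletion. Of the 11 enzymes of DNA methylation and demethylation none passed the test in the 4 comparisons, with medians of 0.20 in WT and 0.20 in KO for IL1β on the log2 scale. With IL1β 1.94% of all genes rose and 4.75% fell in WT, and 4.54% and 7.5% in KO. For KO against WT 0.0116% were higher and 0% lower with vehicle, and 0.231% and 0.185% with IL1β. At such shares none of 11 is no result about the list. Dnmt1, the maintenance methyltransferase, averaged 163 against 162 CPM and its guide Uhrf1 83.8 against 97.7.

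Changes in expression were tested on the UMIs of basophils summed per mouse, for 8648 genes that passed the filter on low counts with the rule genes left out, in 1 edgeR quasi-likelihood fit over 16 mice with Benjamini-Hochberg adjustment. A gene is called at an adjusted p under 0.05, and levels given with a test are CPM on edgeR's TMM scale. Genes are named by size of change among called genes at 20 CPM or more whose 2 groups do not overlap, so the absence of overlap follows from that choice for the largest changes. The median log2 fold change of all genes was 0.02 for IL1β in each genotype. In a bulk sum, fewer cells of a stage and less RNA per cell cannot be told apart.

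In WT basophils, IL1β raised 168 genes (1.94% of those tested) and lowered 411 (4.75%). With the 2 libraries of a group as the replicates in place of its 4 mice, 20 genes were called. Nfkbia (chr12:55489410-55492647 on GRCm38), the inhibitor that NF-kB induces as feedback, was at 167, 52.3, 99.3 and 82.5 CPM with vehicle and 357, 264, 227 and 233 with IL1β. Every IL1β mouse lay above every vehicle mouse (log2 fold change 1.32 ± 0.29 SE, edgeR adjusted p = 0.0156). Without WT vehicle mouse 3 or 4, or with libraries as replicates, the call was lost. Zfp36l2, an RNA-binding protein that promotes decay of mRNAs, went from 214, 95.9, 226 and 172 to 358, 391, 379 and 423 CPM, again without overlap (log2 fold change 1.04 ± 0.24 SE, edgeR adjusted p = 0.0176), with the call lost without any 1 of 4 mice and with libraries as replicates.

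Most of the other large increases in WT were in genes at a higher level in granulocyte progenitors than in basophils. Gda, guanine deaminase, rose from 27.7 ± 7.17 (SD, n = 4) to 74.9 ± 10.9 CPM, with 161 in granulocyte progenitors. Mtus1 rose from 5.82 ± 4.90 to 23.8 ± 2.84 (78.8), Ncam1, an adhesion molecule, from 6.43 ± 4.52 to 22.4 ± 5.33 (49.2), App from 6.11 ± 4.75 to 28.6 ± 8.58 (64.4), and B4galt6 from 7.26 ± 5.38 to 28.0 ± 2.18 (141). Serpina3g, a protease inhibitor of a family with close copies, rose from 2.85 ± 2.15 to 20.2 ± 10.5 (13.6). Higher in basophils than in granulocyte progenitors was Skil, a regulator of TGF-beta signalling, which rose from 6.89 ± 4.94 to 22.8 ± 5.71 (9.53). The predicted gene Gm10263 (12.7 to 53.8) and Mtfr2 (11.6 to 24.1) completed, with Nfkbia, the 10 largest. The calls of App and Serpina3g were lost without WT vehicle mouse 4, those of Gda, Mtus1, Skil and Mtfr2 with libraries as replicates, that of B4galt6 without any 1 of 10 mice, and that of Gm10263 without any 1 of 4.

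Beside these, the summed level of 11 neutrophil lineage markers in basophils ran from 5864 to 13766 CPM in WT vehicle mice (median 7600.4) and from 10485 to 19969 in WT IL1β mice (median 13272). None of the 11 passed the test, and their median log2 fold change was 0.97. Of the 168 higher genes 57 (33.9%) had a higher mean in basophils than in other cells, against 49.1% of all genes tested. A higher mean in basophils than in granulocyte progenitors was found for 84 of the 168 (50%), against 61.3% of all genes. The part of neutrophil lineage RNA in the increases was not tested.

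Of the 411 genes that fell in WT, 204 (49.6%) had a higher mean in basophils than in other cells, close to the 49.1% of all genes. Igfbp7 (chr5:77349240-77408041), a secreted protein that binds insulin-like growth factors, averaged 0.484 CPM in other cells. In basophils it was at 47.4, 34.9, 44.9 and 39.2 with vehicle and 18.4, 13.8, 13.8 and 3.43 with IL1β (log2 fold change -1.66 ± 0.31 SE, edgeR adjusted p = 0.00384). By library it was at 46.3 and 38.7 CPM with vehicle and 16.2 and 13.2 with IL1β. The groups did not overlap, and the call held without any 1 mouse, with libraries as replicates and under the ratio rule. Csrp3, one of the leading genes, went from 459, 532, 403 and 375 to 252, 221, 154 and 113 CPM (log2 fold change -1.22 ± 0.26 SE, edgeR adjusted p = 0.0152), without overlap but with the call lost without WT IL1β mouse 3 or WT vehicle mouse 1. Rnase12 went from 155 ± 41.8 to 79.0 ± 20.8 CPM (log2 fold change -0.85 ± 0.15 SE, edgeR adjusted p = 0.000921).

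Ifi27, an interferon-inducible gene, was at 78.2, 43.6, 44.9 and 47.3 CPM with vehicle and 19.1, 29.3, 15.4 and 24.0 with IL1β (log2 fold change -1.41 ± 0.20 SE, edgeR adjusted p = 0.000101), a decrease that held under every alternative run. The other large decreases were in Ppib, cyclophilin B (699.7 to 285 CPM), Ubb, a ubiquitin gene (750 to 329), and the histone genes Hist1h1e (335 to 146) and Hist1h2ae (234 to 92.6). Gm12840 (57.5 to 19.0), Bfsp2 (25.1 to 10.2) and G430095P16Rik (25.3 to 9.08) completed the 10. The calls of Ppib, Ubb and both histone genes were lost without WT IL1β mouse 3 or without WT vehicle mouse 1, and those of Gm12840, Bfsp2 and G430095P16Rik without any 1 of 3 to 6 mice. Histone transcripts of this cluster are near-identical to each other, and how their reads were split is uncertain.

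In KO basophils, IL1β raised 393 genes (4.54%) and lowered 649 (7.5%), and with libraries as replicates 151 were called. Thy1 (chr9:44043384-44048579), a surface glycoprotein best known from T cells, was at 15.2, 13.6, 23.4 and 23.3 CPM with vehicle and 64.6, 103, 140.1 and 87.9 with IL1β. All IL1β mice lay above all vehicle mice (log2 fold change 2.38 ± 0.35 SE, edgeR adjusted p = 0.00101), and the call held under every alternative run. In WT it was at 32.1, 8.72, 42.6 and 49.4 with vehicle and 92.5, 107, 80.1 and 42.0 with IL1β, where the ranges overlapped (log2 fold change 1.00 ± 0.31 SE, edgeR adjusted p = 0.0699). By library Thy1 in KO was at 22.5 and 19.9 CPM with vehicle and 85.2 and 106 with IL1β. Other cells averaged 7.34 CPM.

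Il1rl1 (chr1:40429570-40465415), the IL33 receptor, was at 92.6, 47.7, 97.7 and 78.1 CPM in KO with vehicle and 105, 124, 163 and 138 with IL1β, without overlap (log2 fold change 0.71 ± 0.16 SE, edgeR adjusted p = 0.00511). Il18rap went from 167, 78.4, 138 and 173 to 156, 254, 272 and 220.3 (log2 fold change 0.67 ± 0.20 SE, edgeR adjusted p = 0.0353), with the lowest IL1β mouse inside the vehicle range. By library Il1rl1 in KO was at 79.6 and 78.8 CPM with vehicle and 116 and 141 with IL1β. In WT neither passed the test, with Il1rl1 at 74.4, 52.3, 70.9 and 94.7 with vehicle and 105, 109, 120.4 and 77.2 with IL1β (log2 fold change 0.40 ± 0.17 SE, edgeR adjusted p = 0.155) and Il18rap at a log2 fold change of 0.05. These 2 were the members of the list of 11 IL1 family receptors and adaptors that passed in KO, where 4.54% of all genes rose, and none of the 11 passed in WT, where 1.94% did. The Il1rl1 call held without any 1 mouse and was lost under the ratio rule, and that of Il18rap was lost without any 1 of 6 mice.

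Other genes also rose in KO. L1cam, an adhesion molecule, rose from 8.35 ± 3.77 to 23.6 ± 4.70 CPM, Tgfbr3, a TGF-beta coreceptor, from 13.6 ± 4.58 to 33.4 ± 6.38, and Ecm1, a secreted matrix protein, from 9.86 ± 3.36 to 26.0 ± 8.39. Slc23a2, a vitamin C transporter, rose from 9.54 ± 2.50 to 22.4 ± 5.90 and Zfp518b from 19.5 ± 4.80 to 42.0 ± 3.59. These 5 were at higher levels in basophils than in other cells, and in WT their log2 fold changes lay between -0.08 and 0.45 without passing the test. Gstm1, a glutathione transferase (70.3 to 165 CPM), Tsc22d3, a glucocorticoid-induced regulator (33.9 to 71.6), Pcyox1 (12.2 to 25.9) and Gm10263 (19.6 to 50.6) completed the 10 with Thy1. The call of Gstm1 was lost without any 1 of 13 mice, and those of Tsc22d3 and Gm10263 without KO vehicle mouse 3 or 4 (for Gm10263, also without KO IL1β mouse 1 or 2). Those of Ecm1, Slc23a2 and Pcyox1 were lost with libraries as replicates.

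Ccl6, a chemokine, was at 66.0, 61.3, 42.5 and 115 CPM in KO with vehicle and 45.7, 212, 414 and 146 with IL1β (log2 fold change 1.60 ± 0.46 SE, edgeR adjusted p = 0.0429). KO IL1β mouse 1, which has 43 basophils, lay among the vehicle mice, and the call was lost without any 1 of 13 mice. In WT the gene was at 73.1, 78.4, 70.9 and 83.2 with vehicle and 67.4, 77.5, 71.4 and 70.4 with IL1β.

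Of 8 erythroid markers tested 1, Car1, fell in KO, where 7.5% of all genes did, and none rose. Rhd, a Rh blood group protein, was at 53.3, 37.5, 56.3 and 51.7 CPM with vehicle and 13.5, 6.89, 18.9 and 17.6 with IL1β (log2 fold change -1.82 ± 0.35 SE, edgeR adjusted p = 0.00361), and the other cells averaged 54.9. Car1, carbonic anhydrase 1, went from 358 ± 30.5 to 140.2 ± 75.3 (569 in other cells), Blvrb, a biliverdin reductase, from 265 ± 67.6 to 105 ± 53.5 (263), and Aqp1, a water channel, from 95.2 ± 17.8 to 40.5 ± 25.0 (106). The summed level of 9 erythroid markers in KO basophils ran from 809 to 3397 CPM with vehicle (median 2494) and from 239.6 to 1586 with IL1β (median 1151). In the other cells of KO mice its medians were 2808 and 2039.5. In WT basophils the medians were 2852 and 2499.9. Of the 649 lower genes 139 (21.4%) had a higher mean in basophils than in other cells, against 49.1% of all genes, and of the 393 higher genes 304 (77.4%) did. The part of erythroid RNA in these decreases was not tested. The call of Aqp1 was lost without any 1 of 11 mice, that of Car1 without KO IL1β mouse 3 or KO vehicle mouse 3, and that of Blvrb without KO vehicle mouse 3 or 4.

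Rgs10, a regulator of G protein signalling, fell in both genotypes. It was at 53.3, 85.2, 49.9 and 51.7 CPM in KO with vehicle and 5.38, 12.5, 19.6 and 28.4 with IL1β (log2 fold change -1.57 ± 0.23 SE, edgeR adjusted p = 0.000202). In WT it was at 52.6, 78.4, 50.8 and 58.8 with vehicle and 25.4, 37.9, 31.1 and 29.2 with IL1β (log2 fold change -0.89 ± 0.22 SE, edgeR adjusted p = 0.011). Neither pair of ranges overlapped, and the KO call held under every alternative run. Ctss, cathepsin S (26.7 to 8.99 CPM), Ly86, a partner of an immune receptor (30.7 to 6.15), Prdx4, a peroxiredoxin of the endoplasmic reticulum (43.1 to 16.6), Bmyc (24.4 to 9.34) and Gm26699 (28.9 to 7.57) also fell in KO. The call of Ly86 was lost without KO IL1β mouse 3 or 4 or KO vehicle mouse 1 or 3.

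By role, none of the 8 granule proteins tested passed for IL1β in either genotype, with medians of -0.28 in WT and 0.17 in KO on the log2 scale, beside 0.02 for all genes. Cpa3 was at -0.19 (adjusted p = 0.679) and 0.36 (adjusted p = 0.327, edgeR). Of all genes tested 1.94% rose and 4.75% fell in WT, and 4.54% and 7.5% in KO. Brackets from here on give the log2 fold change and edgeR's adjusted p. Of 18 genes of IgE receptor signalling, the adaptor Vav1 (0.71, adjusted p = 0.00922) and the kinase Btk (0.58, adjusted p = 0.0151) rose in WT, and the kinase Fyn (0.82, adjusted p = 0.000969), Plcg1 (1.02, adjusted p = 0.0273) and Gab2 (0.81, adjusted p = 0.00947) in KO. Of 10 surface receptors the inhibitory receptor Cd300a (-0.76, adjusted p = 0.0185) and Fcgr3 (-0.75, adjusted p = 0.0391) fell in WT, and the activating receptor Cd200r4 (1.03, adjusted p = 0.00782) rose in KO. The Cd200r4 call held under every alternative run and that of Fyn without any 1 mouse. The calls of Vav1 and Btk were lost without WT vehicle mouse 4, that of Gab2 without KO IL1β mouse 3, and those of Plcg1, Cd300a and Fcgr3 without any 1 of 3 to 8 mice.

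In the next 3 lists, too, members are read beside the 1.94% of all genes that rose in WT and the 4.54% in KO. Of 10 genes of histamine and lipid mediators, Lta4h, which makes a leukotriene, rose in WT (0.54, adjusted p = 0.0147) and KO (0.42, adjusted p = 0.0415), the cyclooxygenase Ptgs1 in WT (1.33, adjusted p = 0.0192) and the prostaglandin receptor Ptger3 in KO (0.67, adjusted p = 0.0312). Of 14 cytokines and chemokines only Ccl6 passed, in KO, and the list medians were 0.01 and 0.61. Il4 was at 39.8, 26.1, 30.7 and 33.8 CPM in WT with vehicle and 27.9, 30.2, 16.0 and 8.58 with IL1β (log2 fold change -0.70 ± 0.34 SE, edgeR adjusted p = 0.235), and in KO its log2 fold change was -0.17. Apart from Ccl6 none of the 14 showed a detected change, in a fit with no term for the mouse number. Of the 14, 8 were higher in the library of mice 1 and 2 in 4 of 4 groups, with a list median log2 difference of 0.45. Of 17 growth factor receptors Csf3r (1.17, adjusted p = 0.0467) and Ifngr1 (0.54, adjusted p = 0.0492) rose in WT and Cxcr4, which holds cells in the marrow, in KO (0.53, adjusted p = 0.0234). Lta4h, Ptgs1, Csf3r and Ifngr1 were at higher levels in granulocyte progenitors (265, 38.7, 55.1 and 265 CPM) than in basophils (89.5, 8.70, 12.9 and 88.7). Each of these calls was lost without 1 or more single mice.

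Among regulators, beside 1.94% of all genes higher in WT and 4.54% in KO, 3 of 13 NF-kB subunits and feedback genes rose in WT, Nfkbia, Birc3 (0.90, adjusted p = 0.0326) and the subunit Nfkb1 (0.46, adjusted p = 0.0322), and 2 in KO, Nfkbia (0.96, adjusted p = 0.0433) and Nfkb1 (0.48, adjusted p = 0.0141). The median of the list was 0.49 in WT and 0.48 in KO. Of 23 AP-1 and immediate early genes Zfp36l2 passed in WT and in KO (0.92, adjusted p = 0.0212), with list medians of 0.73 and 0.17. In this list 20 of 23 were higher in the library of mice 1 and 2 in 4 of 4 groups. The median log2 difference was 1.77, and the fit has no term for the mouse number. Of 23 lineage transcription factors Gfi1 rose in WT (1.08, adjusted p = 0.0156) and KO (1.00, adjusted p = 0.0166) and Spi1, a myeloid factor, fell in WT (-0.57, adjusted p = 0.0109). Of 7 JAK-STAT genes the feedback inhibitor Cish (1.45, adjusted p = 0.0438) and the kinase Jak2 (0.48, adjusted p = 0.0196) rose in KO. Each of these calls was lost without 1 or more single mice.

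Of all genes 4.75% fell in WT and 7.5% in KO. Of 10 interferon response genes tested, Ifitm1, Ifitm2 and Bst2 fell in WT and the same 3 with Xaf1 in KO, and the median of the list was -0.54 in WT and -0.54 in KO. Ifitm1 was at 723, 479, 778 and 496 CPM in WT with vehicle and 479, 232, 225 and 216 with IL1β (log2 fold change -1.11 ± 0.30 SE, edgeR adjusted p = 0.0483), and the highest IL1β mouse lay just under the lowest vehicle mouse. In KO it went from 1201, 695, 1432 and 1505 to 597, 715, 532 and 566 (log2 fold change -1.01 ± 0.30 SE, edgeR adjusted p = 0.0464). The Ifitm1 calls were lost without any 1 of 14 mice in WT and of 13 in KO, while that of Ifitm2 in WT (-0.78, adjusted p = 0.000921) held without any 1. Of 10 MHC class I genes the immunoproteasome subunit Psmb8 fell in WT, from 278, 148, 210.4 and 237 to 161, 137, 126 and 147 CPM (log2 fold change -0.68 ± 0.13 SE, edgeR adjusted p = 0.00155), and in KO, from 232, 259, 311 and 303 to 148, 173, 169 and 179.9 (log2 fold change -0.72 ± 0.13 SE, edgeR adjusted p = 0.000825). In KO Psmb9 (-0.56, adjusted p = 0.00621) and H2-D1 (-0.49, adjusted p = 0.0236) fell as well. The Psmb8 ranges overlapped in WT and not in KO, and both calls held without any 1 mouse but not with libraries as replicates.

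Of 13 heat shock chaperones tested, 5 fell in KO, where 7.5% of all genes did: Hsph1 (-0.93, adjusted p = 0.0264), Hspe1 (-0.60, adjusted p = 0.0147), Hspd1 (-0.59, adjusted p = 0.0136), Hspa8 (-0.45, adjusted p = 0.00661) and Hsp90ab1, and none in WT. The difference between genotypes itself passed for none of them. The summed level of 14 chaperones in KO basophils had medians of 9346 CPM with vehicle and 8888 with IL1β, with overlapping ranges. In KO granulocyte progenitors the medians were 10554 and 7884, and in other KO cells 10891 and 8650. Of 24 S phase genes Dut, which clears dUTP, fell in WT (-0.58, adjusted p = 0.00539) and KO (-0.63, adjusted p = 0.00195), as did the thymidylate synthase Tyms (-0.54, adjusted p = 0.0492 in WT and -0.56, adjusted p = 0.0245 in KO), with Cdt1 higher in WT and Gins2 and Gmnn lower in KO. That is 2 of 24 lower in WT and 4 of 24 in KO, beside 4.75% and 7.5% of all genes. Of 24 G2 and mitosis genes Kif23 rose in WT (0.57, adjusted p = 0.0292) and KO (0.64, adjusted p = 0.0107), with Ccna2 higher and Cdk1 and Cks2 lower in WT and Plk1 and Kif11 higher and Tubb4b lower in KO. That is 2 of 24 higher and 2 lower in WT, beside 1.94% and 4.75% of all genes. In KO it is 3 of 24 higher and 1 lower, beside 4.54% and 7.5%. Calls this few are no result about the list. Of 11 survival genes the death effector Bax fell in WT (-0.49, adjusted p = 0.0331) and KO (-0.73, adjusted p = 0.00122), Bcl2 fell in WT (-0.44, adjusted p = 0.0328) and Txnip rose in KO (0.41, adjusted p = 0.0396). None of 13 progenitor genes passed.

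The remaining lists held markers of other cells. In KO the monocyte list had Ly86 lower (1 of 8), the erythroid list Car1 lower (1 of 8) and the megakaryocyte list Itga2b higher (1 of 2), and in WT the lymphoid list had Nkg7 lower (1 of 5). The median log2 fold changes in KO were -0.35 for the monocyte, -1.39 for the erythroid and -1.25 for the megakaryocyte list. In WT that of the lymphoid list was -0.14. Of all genes 7.5% fell and 4.54% rose in KO, and 4.75% fell in WT, so single members of lists this short are no result about the list. None of 11 neutrophil markers, of the 2 mast cell markers tested (of 9) or of the 1 eosinophil marker tested (of 7) passed in either genotype.

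The responses of the 2 genotypes were compared in different mice. Of the 579 genes called in WT and the 1042 called in KO, 291 were called in both, 290 of them in the same direction, 55 higher and 235 lower. That is 50.3% of the WT calls and 27.9% of the KO calls. Of the WT calls 96.7% had the same sign in KO, and of all genes 68.5% did. Across genes, which are not independent replicates, the log2 fold changes correlated with Pearson's r = 0.477 and Spearman's rho = 0.486. A difference of the response between genotypes was detected for no gene (0 of 8648, 0%, with 701 at an unadjusted p under 0.05 in edgeR and 0 called by DESeq2).

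**Figure D3:**
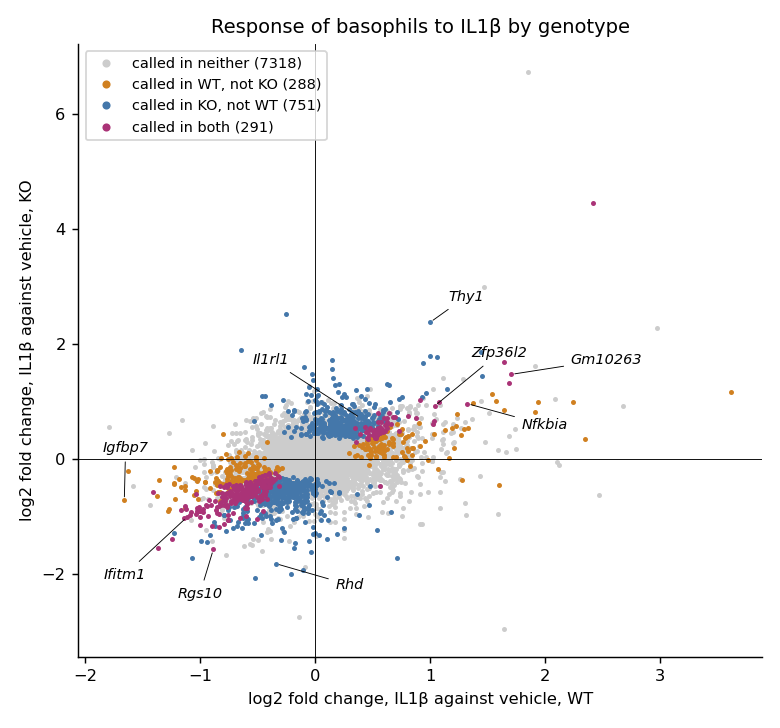
Log2 fold change of IL1β against vehicle in WT basophils (horizontal) and KO basophils (vertical) for 8648 genes, coloured by the comparisons in which each was called. The 291 genes called in both share their direction in all but 1 case, with 235 lower and 55 higher in both, and Thy1 (2.38 in KO and 1.00 in WT) and Igfbp7 (-0.72 and -1.66) are among the labelled genes. The topmost gene called in both is Vcam1, at group means of 0.317 to 11.5 CPM.

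With vehicle, 1 gene was higher in KO basophils than in WT (0.0116%) and none lower (0%) in edgeR, with 376 at an unadjusted p under 0.05, and DESeq2 called the same numbers. With IL1β 20 genes were higher in KO (0.231%) and 16 lower (0.185%) in the fit without a term for the mouse number, and 70 and 94 with the number as a block. These comparisons use the same mice as those of IL1β with vehicle. Commd10, a member of a family of trafficking regulators, was the gene called in both: it was at 10.3, 8.72, 4.73 and 6.76 CPM in WT and 59.6, 37.5, 72.2 and 58.8 in KO with vehicle, and at 11.3, 7.75, 8.65 and 5.15 and 40.4, 71.9, 60.4 and 53.8 with IL1β (log2 fold change 3.05 ± 0.28 SE, edgeR adjusted p = 6.29e-09 with vehicle and log2 fold change 2.75 ± 0.20 SE, edgeR adjusted p = 5.81e-12 with IL1β). KO and WT mice did not overlap. The libraries of WT ran from 7.93 to 11.2 CPM and those of KO from 54.7 to 64.9. In the other cells of the same mice it averaged 9.15 and 10.3 CPM in WT and 27.5 and 27.5 in KO, with vehicle and IL1β. Every KO mouse carried Vav-Cre and no WT mouse did, so for Commd10 effects of Vav-Cre and Tet2 loss cannot be told apart.

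With IL1β, Pdzd4, a PDZ domain protein, was at 14.1, 8.61, 12.8 and 9.44 CPM in WT and 18.8, 32.3, 35.6 and 41.9 in KO (log2 fold change 1.53 ± 0.21 SE, edgeR adjusted p = 6.98e-05). Fyb, an adaptor of immune receptor signalling, was at 173, 192, 153 and 114 and 209.8, 337, 316 and 299 (log2 fold change 0.90 ± 0.14 SE, edgeR adjusted p = 0.000394), and with vehicle at 210.3, 157, 194 and 195 and 247, 259, 283 and 322 (log2 fold change 0.52 ± 0.15 SE, edgeR adjusted p = 0.614). Dpp4, a surface peptidase, was at 28.6, 19.8, 24.3 and 26.6 and 43.0, 53.8, 56.2 and 44.5 (log2 fold change 1.01 ± 0.17 SE, edgeR adjusted p = 0.00179). The genotypes did not overlap for any of these 3 with IL1β, and each call held without any 1 mouse. Those of Pdzd4 and Fyb were lost under the ratio rule and that of Dpp4 with libraries as replicates.

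Igfbp7 (1.5, adjusted p = 0.0147) and Rnase12 (0.75, adjusted p = 0.00637), which fell with IL1β in WT, were higher in KO than in WT with IL1β, as was Cyp11a1 (0.74, adjusted p = 0.0154). Of all genes 0.231% were higher. The list of surface receptors had 1 of 10 higher, Cd200r4 (1.02, adjusted p = 0.011), and that of lipid mediators 1 of 10, Ptger3 (0.73, adjusted p = 0.0444). The ATP-gated channel P2rx7 (0.94, adjusted p = 0.0147), the calcium channel Itpr2 (0.77, adjusted p = 0.0147) and the cytokine Ltb (0.78, adjusted p = 0.0269) were higher as well. Each of these 8 calls was lost without 1 or more single mice. None of the 8 granule proteins tested was called for KO against WT with IL1β. All 20 higher genes had a higher mean in basophils than in other cells, against 49.1% of all genes, and none of the 16 lower genes did. Compared with granulocyte progenitors, all 20 higher genes and 11 of the 16 lower (68.8%) had a higher mean in basophils, against 61.3% of all genes.

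The 16 lower genes included Bex4 (-1.56, adjusted p = 0.0191), the urea transporter Slc14a1 (-1.47, adjusted p = 0.000394), the ganglioside enzyme St3gal5 (-1.47, adjusted p = 0.00349), Ttll12 (-1.18, adjusted p = 0.00704), Prdx4 (-1.11, adjusted p = 0.00661), the efflux pump Abcg2 (-1.10, adjusted p = 0.011), Lmna (-0.95, adjusted p = 0.0391), Mllt3 (-0.80, adjusted p = 0.0353) and Aplp2 (-0.78, adjusted p = 0.00874). Odc1, which starts polyamine synthesis, was at 137, 119.7, 136 and 182 CPM in WT and 75.3, 86.9, 90.1 and 81.2 in KO with IL1β (log2 fold change -0.75 ± 0.13 SE, edgeR adjusted p = 0.00269). It rose with IL1β in WT (0.56, adjusted p = 0.0152) and fell in KO (-0.48, adjusted p = 0.0292). The difference of its response between genotypes did not pass the test, as for every gene, and these comparisons share the same IL1β mice. Beside the lower genes, the erythroid sum in basophils had medians of 2499.9 CPM in WT IL1β and 1151 in KO IL1β, and the neutrophil sum 13272 and 9390.1. Their part in the lower genes was not tested. Of the calls named here, that of Odc1 and that of Slc14a1 held without any 1 mouse and the others did not. Without KO IL1β mouse 3, 11 genes were called in place of 36, and without WT IL1β mouse 1, 220.

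**Figure D4:**
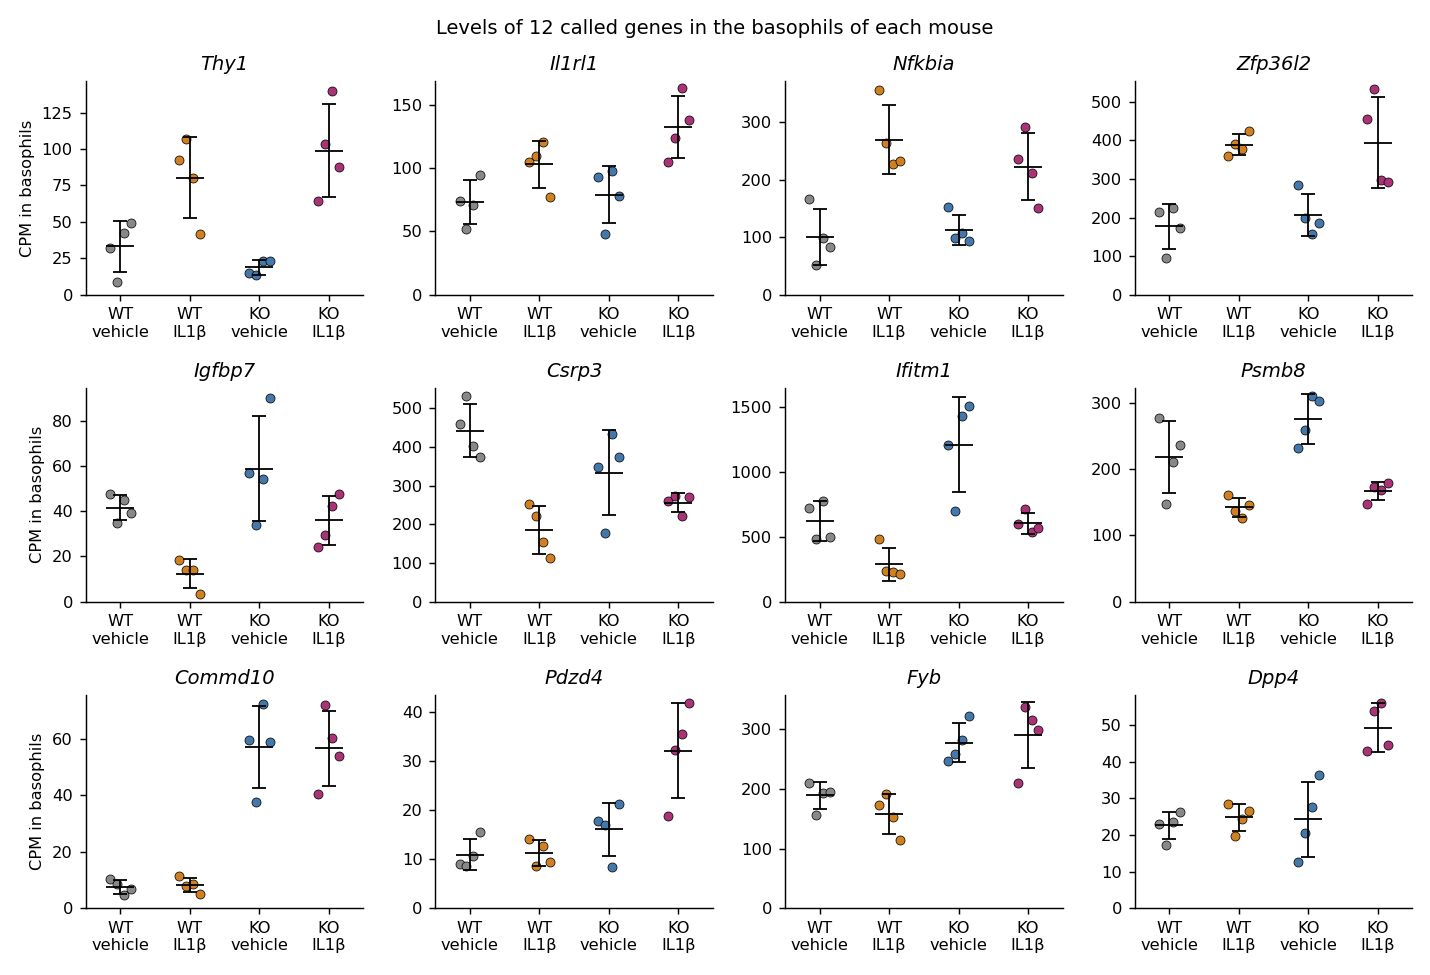
Level in CPM of 12 called genes in the basophils of each of 16 mice (points), with mean and SD (bars), by group. The means of Thy1 and Il1rl1 are highest in KO IL1β, those of Igfbp7 and Csrp3 are lowest in WT IL1β, and Commd10 separates KO (57.0 and 56.6 CPM) from WT (7.62 and 8.21 CPM) with either treatment.

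Whether the response was that of basophils or of the marrow at large was asked against the granulocyte progenitors of the same mice, cells with at least 10 UMIs of Elane and Ms4a3 together and at most 2 of Mcpt8 and Prss34. The response to IL1β differed between the 2 classes in WT for 40 genes in the higher direction (0.377% of 10621) and 51 in the lower (0.48%), and in KO for 40 (0.377%) and 47 (0.443%). Ifitm1 in WT went from 619 to 288 CPM in basophils and 52.9 to 110.2 in granulocyte progenitors (difference of log2 fold changes -2.20 ± 0.37, adjusted p = 0.0181 in edgeR). Its level was lower with IL1β in basophils and higher in the progenitors. Outside the gate, cells of the WT vehicle libraries held means of 0.203 and 0.375 UMIs of Mcpt8 and Prss34. Those of the WT IL1β libraries held 0.594 and 0.565. The part of free basophil RNA in the progenitor levels was not tested. Trp53inp1, a stress-induced gene, went in WT from 12.7 to 21.5 CPM in basophils and 1.99 to 10.6 in granulocyte progenitors (difference -1.86 ± 0.39, adjusted p = 0.00928), and in KO the difference was -1.59 ± 0.38, adjusted p = 0.0268. Ltb in WT went from 28.8 to 28.7 CPM in basophils and 3.27 to 7.62 in granulocyte progenitors (difference -1.53 ± 0.34, adjusted p = 0.0181), and Pdzd4 in KO from 16.1 to 32.1 CPM in basophils and 0.903 to 0.361 in granulocyte progenitors (difference 2.49 ± 0.52, adjusted p = 0.00862).

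The library of mice 1 and 2 and that of mice 3 and 4 differed within every group in the same genes. Of 23 AP-1 and immediate early genes, 20 (87.0%) were higher in the library of mice 1 and 2 in 4 of 4 groups, against 7.98% of all genes, with a median log2 difference of 1.77. Dusp1, a phosphatase induced by stress and by MAP kinases, was at 285 and 56.2 CPM in the 2 libraries of WT vehicle, 916 and 93.1 in WT IL1β, 459.7 and 57.4 in KO vehicle, and 556 and 68.4 in KO IL1β. The pattern reached effector genes: 8 of 14 cytokines (57.1%), Il6, Tnf, Csf1, Osm, Ccl3, Ccl4, Cxcl2 and Tgfb1, were higher in the same libraries, as was Hdc. Of 13 NF-kB genes 5 were, Nfkbia among them, while 6 of 8 erythroid markers were lower. Of the S phase and mitosis genes 5 of 24 each (20.8%) were lower in those libraries, against 7.92% of all genes, and none higher, and no granule gene was higher or lower in all 4. Il6 was at 152 and 56.5 CPM in WT IL1β, while its group means were 59.6 and 94.9 in WT with vehicle and IL1β. The labels do not call the number a batch, and each group had 1 library of each kind.

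**Figure D5:**
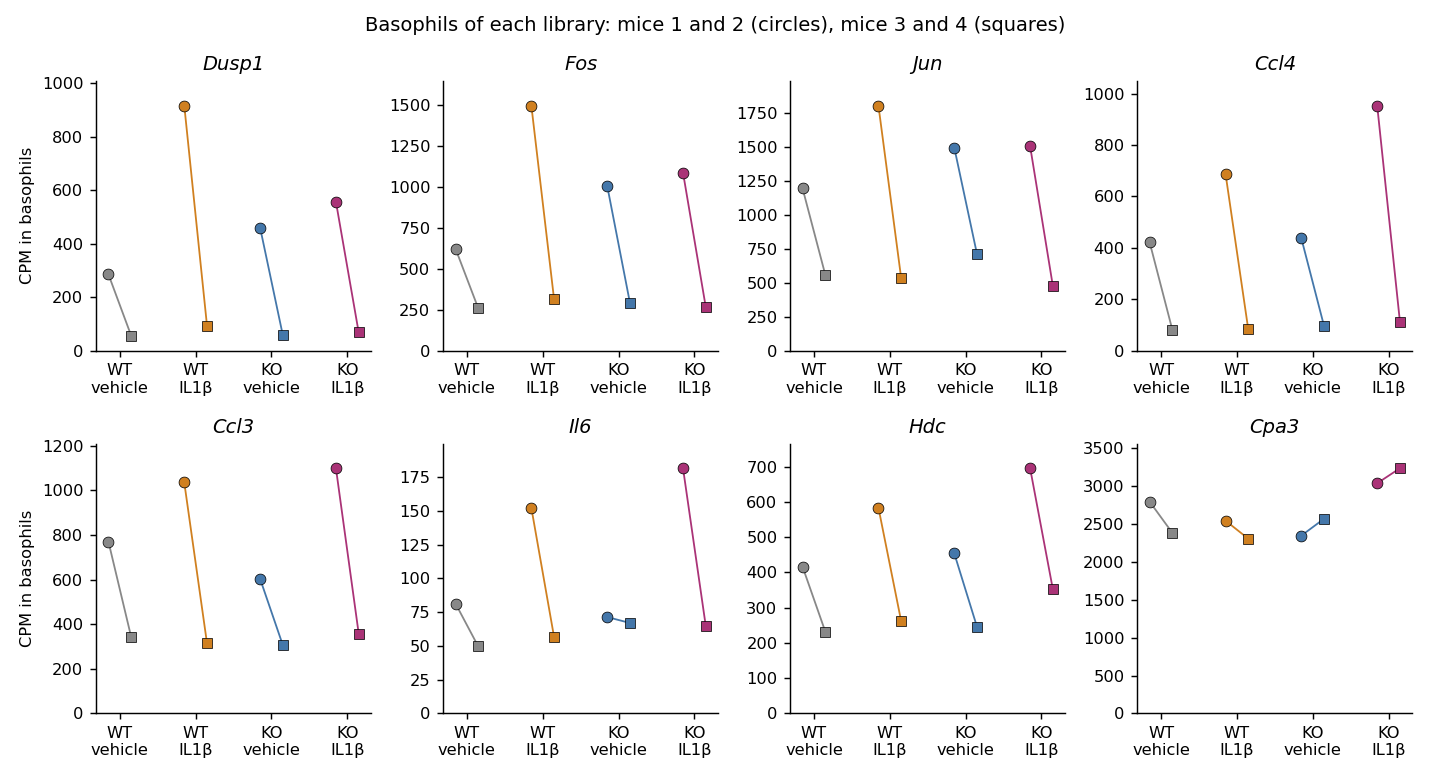
Level in CPM of 8 genes in the basophils of each library, with mice 1 and 2 as circles joined to mice 3 and 4 of the same group as squares. Dusp1, Fos, Jun, Ccl4, Ccl3, Il6 and Hdc are higher in the library of mice 1 and 2 in every group, and Cpa3 is not.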

How the data were processed

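Cells were lineage-negative bone marrow, captured in 8 droplet libraries with 3′ reads and hashtag antibodies. The deposited values are raw UMI counts per gene and cell, made by the authors with Cell Ranger 3.1.0 on mm10 per the submitters' processing notes, which also name Seurat 3.2.3. The authors' cell annotation was not used here. Members and gene lists were chosen with earlier results of these data known. Cells with at least 750 genes and at most 10% mitochondrial UMIs were kept. Hashtags were called with HTODemux (Seurat 5.3.0). Cells with both hashtags were left out of sums per mouse, no other doublet caller was run, and library values include them.

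UMIs were summed per mouse and tested with edgeR 4.0.16 (filterByExpr, TMM, robust quasi-likelihood, 16 mice, 1 term per group). The SE beside a log2 fold change, or a difference of them, is its absolute value over the square root of edgeR's F statistic. Sums of 31 to 701 cells set the precision per mouse. Named genes were the 10 largest called changes in each direction among genes whose mice do not overlap between groups and whose mean reached 20 CPM in a group, up to 4 called members of each list per comparison (or, with none, up to 2 of highest level), and 5 in each direction for the class test. Xist, Tsix and Y-linked genes were left out of the naming. Other genes were chosen after their values were seen. The class test kept each mouse as a block. Shares used exact permutation tests, two-sided, in scipy 1.17.1. Numbers shared by mice of different groups were not treated as pairs. An eosinophil comparison was not run, with 273 cells in all. Cd244a, Cebpd and Ighm were not analysed here. Alternatives included DESeq2 1.42.0, RLE factors, other gates, no filter, another hashtag rule, libraries as replicates and leaving out single mice.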

Additional observations from a re-analysis of the deposited data

Results flagged for a closer look

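For the genes named above and for the share, each group of 4 mice was searched for a mouse whose gap to the nearest other mouse, divided by the range of the group, exceeded Dixon's critical value at 95%. Of 404 groups 26 (6.44%) held one, and chance alone gives about 5%. In KO IL1β mouse 1 these were Cd300a at 45.7 CPM (others 25.1 to 27.9), Gfi1 at 37.7 CPM (others 21.7 to 23.8), Gstm1 at 282 CPM (others 114 to 143), Lta4h at 132 CPM (others 98.0 to 102), Mtfr2 at 32.3 CPM (others 14.0 to 15.7), Mtus1 at 35.0 CPM (others 16.4 to 19.3), Ubb at 285 CPM (others 409.5 to 426) and Vav1 at 78.0 CPM (others 46.5 to 51.2). In WT vehicle mouse 2 these were Gstm1 at 43.6 CPM (others 65.0 to 69.0), Hspe1 at 784 CPM (others 578 to 585), Lmna at 52.3 CPM (others 29.5 to 31.8) and Rnase12 at 218 CPM (others 131 to 138). In KO vehicle mouse 2 these were Cxcr4 at 194 CPM (others 289 to 302), Rgs10 at 85.2 CPM (others 49.9 to 53.3) and Tgfbr3 at 6.82 CPM (others 14.9 to 16.5). In WT vehicle mouse 1 these were H2-D1 at 666 CPM (others 424 to 462) and Ifi27 at 78.2 CPM (others 43.6 to 47.3). In WT vehicle mouse 3 these were Ifngr1 at 52.0 CPM (others 75.7 to 79.8) and Tsc22d3 at 48.5 CPM (others 23.7 to 26.1). In KO IL1β mouse 2 these were Il6 at 238 CPM (others 72.4 to 83.4) and Spi1 at 96.4 CPM (others 108 to 110.3). In KO IL1β mouse 4 this was G430095P16Rik at 17.1 CPM (others 10.8 to 11.6). In WT IL1β mouse 1 this was Ifitm1 at 479 CPM (others 216 to 232). In KO vehicle mouse 4 this was Ifngr1 at 60.9 CPM (others 88.8 to 92.0). In WT IL1β mouse 4 this was Il18rap at 106 CPM (others 164 to 176). In WT IL1β mouse 2 this was Vav1 at 51.7 CPM (others 59.9 to 61.4). KO IL1β mouse 1, KO vehicle mouse 2 and WT vehicle mouse 2 have 43, 41 and 31 basophils, with medians of 6676, 5281 and 2881 UMIs. The medians of the other mice ran from 2300 to 5058. In KO IL1β, KO vehicle and WT vehicle the split into mice 1 and 2 depended on the hashtag rule.

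The response to IL1β differed between basophils and granulocyte progenitors of the same mice in the edgeR test of the difference itself, named for the 5 largest in each direction. In KO the difference of log2 fold changes, basophils minus progenitors, was positive for Pdzd4 (2.49), Mboat1 (1.38), Atp8b2 (1.28), Nav1 (1.20) and Gtf2h2 (1.16) and negative for Trp53inp1 (-1.59), Arhgap31 (-1.55), Tbxas1 (-1.27), Endod1 (-1.26) and Gm1604a (-1.23). In WT it was positive for Ydjc (1.41), Thyn1 (1.31), Ecsit (1.30), Ctsh (1.11) and Fkbp11 (1.03) and negative for Gm12840 (-2.26), Ifitm1 (-2.20), Lag3 (-2.17), Trp53inp1 (-1.86) and Ltb (-1.53). For Lag3, at 0.352 and 1.05 CPM in the WT progenitors with vehicle and IL1β, no fold change was fitted in the progenitors alone. Pdzd4 was at 0.903 and 0.361 CPM in the KO progenitors. Both differences rest on progenitor values near 0, and the part of free basophil RNA in the progenitors was not tested.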

How the results depend on the processing

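Of 128 calls of named genes in 1 of the 4 comparisons, none changed direction under an alternative, 97 were lost with libraries as replicates, 86 under the hashtag ratio rule and 4 with the replicate block, and over all alternatives 786 of 3763 values lost the call. Named values outside these 128, and the class test's genes, were not recomputed one by one. The count for IL1β in WT (579) was 280 among genes higher in basophils than in other cells, 219 under the hashtag ratio rule, 20 with libraries as replicates and 120 with libraries and the replicate block, and in KO (1042) it was 330, 222, 151 and 393. For KO against WT with IL1β (36) it was 12, 2, 10 and 57 under the same 4 alternatives, 151 with Xist as a covariate, 284 with no filter on low counts, 164 with the replicate block in mice and 129 without mice with under 100 basophils. For KO against WT with vehicle (1) it was 2 with Xist as a covariate, 2 under the ratio rule, 8 with no filter and 2 with the replicate block, and for the difference between genotypes (0) it was 14 with no filter, 1 with libraries and the block and 1 without the mice under 100 basophils. The class comparison called 330 genes in KO and 273 in WT with no filter, in place of 87 and 91, and with RLE factors 61 were higher and 28 lower in KO and 52 and 41 in WT. The cause was not tested.

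Leaving out single mice gave 203 to 669 genes in WT, lowest without WT IL1β mouse 3 and also low without WT vehicle mouse 1 (218), WT IL1β mouse 4 (322) and WT vehicle mouse 4 (358). In KO it gave 491 to 1104, with 491 without KO vehicle mouse 3, 525 without KO IL1β mouse 2 and 664 without KO vehicle mouse 4. KO against WT with IL1β gave 11 to 220, with 84, 16, 11 and 78 without KO IL1β mouse 1, 2, 3 and 4, 76 and 59 without KO vehicle mouse 2 and 4, and 220, 14 and 18 without WT IL1β mouse 1, 3 and 4. With vehicle it gave 1 to 2 and for the difference between genotypes 0 to 3. The log2 ratio of the share ran from 0.852 to 1.17 in WT, from 0.712 to 1.36 in KO, from -0.580 to -0.145 for KO against WT with vehicle, from -0.601 to 0.0489 with IL1β and from -0.436 to 0.370 for the difference of effects (in mean log2 shares, -0.12 with all mice). Without mice under 100 basophils the share of KO against WT with IL1β was 0.0489 and the difference of effects 0.341, and under the ratio rule the latter was 0.144, all of the opposite sign to the values with all mice, although by mean shares the effect in KO was the higher already. Thinning to 5000 UMIs a cell kept only cells with at least 5000 UMIs, while the median basophil held 2974. It left 3 basophils in WT vehicle mouse 2 and a mean share of 2.24% in WT vehicle, in place of 5.95%. Among these deeper cells the log2 ratios were 1.5 in WT and 1.36 in KO. Over all genes, libraries of the same number in different groups deviated together weakly or not at all (correlations from -0.0879 to 0.166, and 6 of 16 mice closest to their own number), so the number was not treated as a pairing, although immediate early and cytokine genes differed by number in every group. Sums of 31 to 43 cells in 3 mice limit the precision of low genes.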
